A study of Mus musculus with 11 samples.

Results

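The proteins that coat lipid droplets and control the breakdown of their triglyceride were followed here through 10 genes: Plin1, Plin2, Plin3, Plin4, Plin5, Cidec, Hilpda, G0s2, Pnpla2 and Abhd5. They were chosen by name, and every array probe whose RefSeq accession belongs to one of them was taken, which gave 13 of 41174 probes and 10 of the 17427 genes with a symbol on the array. In adrenocortical cells sorted from Star knockout fetuses, Hilpda, a droplet protein that inhibits the main triglyceride lipase, was 7.69-fold higher than in wild-type cells. It was the only one of the 10 genes past the threshold of a Benjamini-Hochberg adjusted p of 0.05 (limma), and it passed in 2 of the 11 fits that each left out 1 array. Plin2, a widely expressed droplet coat protein, was above every wild-type array on 3 of 4 knockout arrays but did not pass.

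Gene expression was measured on single-colour Agilent oligonucleotide arrays in 4 Star-/- and 7 Star+/+ mouse fetuses (Mus musculus) at E17.5-18.5 (embryonic days), with 1 array per mouse. All 4 knockout fetuses were male; 3 wild-type fetuses were male and 4 female. Adrenal glands were dissociated and cells positive for enhanced green fluorescent protein were sorted, so all groups carried that reporter, and the promoter that drove it was not stated in the sources used here. RNA was linearly amplified before labelling. Slide 1 held knockout arrays 1 and 2 with wild-type arrays 1 and 2, slide 2 held knockout arrays 3 and 4 with wild-type array 3 (female), and slide 3 held wild-type arrays 4 to 7 only.

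STAR carries cholesterol to the inner mitochondrial membrane, where steroid synthesis begins. Adrenocortical cells keep cholesterol esters and triglyceride in cytoplasmic droplets coated by perilipins, and loss of STAR in people causes lipoid congenital adrenal hyperplasia, in which the cortex fills with lipid. Triglyceride is opened by the lipase ATGL, the product of Pnpla2, which ABHD5 activates and which G0S2 and HILPDA inhibit. PLIN1 and PLIN5 bind ABHD5 at the droplet surface, and CIDEC drives the fusion of small droplets into large ones.

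Levels are given as the log2 signal of a probe relative to the 75th percentile of its array, so levels of the same probe can be compared between arrays but not levels of different probes. A difference is the log2 level in knockout minus wild-type arrays, fitted with slide as a block and given with its standard error. Since slide 3 held no knockout array, the difference came from slides 1 and 2, and slide 3 added to the estimate of the spread. Of 20750 genes and unnamed probes tested, 125 were higher and 48 lower, and the median difference of all was −0.16.

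The arrays were not uniform. The 75th percentile of the signal ran between 190 and 706 on knockout arrays and between 115 and 463 on wild-type arrays. The lowest, 115, was that of wild-type array 3, the sole wild-type array of slide 2, which also correlated least with the rest (median r of 0.877 over probes) and the highest summed erythroid markers (4306, against 606 to 1641 on knockout arrays and 875 to 1353 on the other wild-type arrays). Wild-type arrays 5, 6 and 7 had summed chromaffin markers of 1493 to 1978, against 5.44 to 148 on knockout arrays and 101 to 457 on the other wild-type arrays. Star itself, the deleted gene, lay at 1.58 to 3.27 on knockout arrays and 3.21 to 7.86 on wild-type arrays for one probe, with a difference of −4.70 ± 0.93 (limma, adjusted p = 0.0559). Its other probe did not overlap between genotypes, at 0.29 to 1.42 on knockout arrays and 2.36 to 7.18 on wild-type arrays. With each probe tested separately, that other probe had a difference of −5.38 ± 0.91 (limma, adjusted p = 0.0367). The deleted exons were not stated in the sources used here, so these probes are a limited check of the genotype. Of the adrenocortical markers, Cyp11a1, Hsd3b1, Nr5a1, Mc2r, Scarb1, Fdx1, Fdxr and Mrap were above background on all 11 arrays, and Cyp21a1 on 6.

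**Figure D1:**
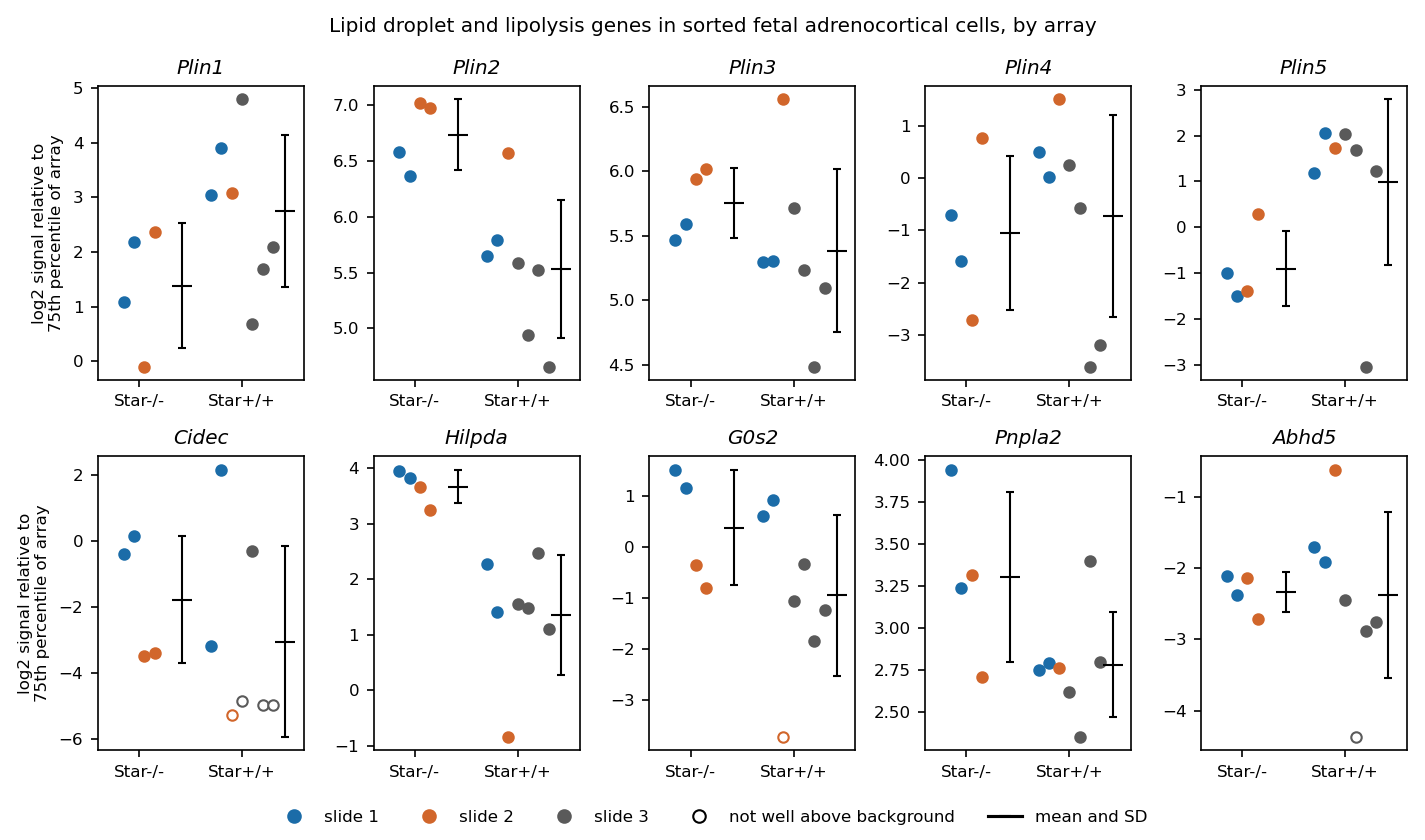
Levels of the 10 genes on each array, as log2 signal relative to the 75th percentile of the array (vertical axes differ), for 4 Star-/- arrays on the left and 7 Star+/+ arrays on the right of each panel. Colours mark the slide, open points are not well above background, and bars are the mean and SD. The 4 knockout points of Hilpda, 3.25 to 3.94, all lie above the 7 wild-type points, which reach 2.47.

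Of the droplet coat proteins, Plin2, which coats droplets in most cell types, lay at 6.58, 6.36, 7.02 and 6.97 on knockout arrays 1 to 4, against a lowest level of 4.66, a median of 5.59 and a highest level of 6.57 on wild-type arrays. Knockout arrays 1, 3 and 4 were above every wild-type array, and wild-type array 3 alone reached into the knockout range. The fitted difference was 0.62 ± 0.33 (limma, adjusted p = 0.351), with 0.75 within slide 1 and 0.43 within slide 2. The group means over all slides were 6.74 ± 0.32 in knockout arrays (SD, n = 4) and 5.53 ± 0.62 in wild-type arrays (SD, n = 7), a wider gap than the fitted one because the wild-type arrays of slide 3, at 4.66 to 5.59, enter those means.

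Plin5, a perilipin of cells that burn much fatty acid, lay at −0.99, −1.50, −1.40 and 0.28 on knockout arrays, against a lowest level of −3.03, a median of 1.69 and a highest level of 2.06 on wild-type arrays. All 4 knockout arrays were below 6 of the 7 wild-type arrays. The exception was wild-type array 6, the lowest of all 11. The difference of −2.63 ± 1.11 did not pass (limma, unadjusted p = 0.0391, adjusted p = 0.249). It was −2.87 within slide 1 and −2.28 within slide 2.

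Plin1, the perilipin that guards droplets against lipases until protein kinase A phosphorylates it, lay at 1.08, 2.19, −0.10 and 2.37 on knockout arrays. Wild-type arrays had a lowest level of 0.68, a median of 3.04 and a highest level of 4.79. The knockout arrays were below the 4 highest wild-type arrays and overlapped arrays 5, 6 and 7, the ones with the high chromaffin markers. The difference was −1.88 ± 0.94 (limma, adjusted p = 0.320), −1.83 within slide 1 and −1.95 within slide 2.

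Plin4, a perilipin best known from fat and muscle, lay on knockout arrays at −0.71, −1.58, −2.71 and 0.77. Its wild-type levels had a lowest value of −3.60, a median of 0.027 and a highest value of 1.50. The groups overlapped over all slides, but within slides 1 and 2 every knockout array was below the wild-type arrays of its slide. The difference was −1.84 ± 1.08 (limma, adjusted p = 0.389), −1.41 within slide 1 and −2.47 within slide 2. Plin3, a coat protein that also exists free in the cytosol, lay at 5.46, 5.59, 5.94 and 6.02 on knockout arrays, against 4.48, 5.30 and 6.56 as the lowest, median and highest wild-type levels. Its difference was −0.095 ± 0.36 (limma, adjusted p = 0.913), with opposite signs in the slides, 0.23 in slide 1 and −0.58 in slide 2, and it turned to 0.10 with normexp background correction and 0.22 with quantile normalization. Plin3, Plin4 and Plin5 all lie on chromosome 17, the windows around the start sites of Plin4 and Plin5 at chr17:56109733-56110032 and chr17:56117249-56117548, both on the minus strand (GRCm38.p6).

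Hilpda, which is induced by hypoxia and by fatty acids and inhibits ATGL, has a start site on chromosome 6. The 300-base window around that start site, most of it upstream, is shown beside that of Plin2 because these were the only ones among the 13 windows of the 10 genes to hold the hypoxia response core ACGTG. The core is in capitals, searched on both strands. The windows are from RefSeq on GRCm38.p6, Hilpda at chr6:29272376-29272675 on the plus strand and Plin2 at chr4:86670010-86670309 on the minus strand, 5′ to 3′.
Hilpda: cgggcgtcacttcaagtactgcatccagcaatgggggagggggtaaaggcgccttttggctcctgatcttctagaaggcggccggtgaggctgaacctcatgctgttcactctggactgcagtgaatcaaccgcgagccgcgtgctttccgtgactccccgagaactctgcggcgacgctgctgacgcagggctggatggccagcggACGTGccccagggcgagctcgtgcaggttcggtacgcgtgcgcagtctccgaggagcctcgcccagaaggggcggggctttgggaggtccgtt
Plin2: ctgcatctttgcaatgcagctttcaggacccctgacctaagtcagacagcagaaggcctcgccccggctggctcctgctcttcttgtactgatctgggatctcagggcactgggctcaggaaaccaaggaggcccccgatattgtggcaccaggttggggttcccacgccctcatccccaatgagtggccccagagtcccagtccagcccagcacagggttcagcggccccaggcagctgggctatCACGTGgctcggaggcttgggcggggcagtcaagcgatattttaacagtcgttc
In Plin2 the core reads on both strands over the same bases, which spell CACGTG. The hypoxia core was in 19.6% of 32851 such windows of all genes. A second Hilpda start window, at chr6:29272238-29272537, did not hold it. Of the other motifs searched, the NR5A1 half-site AAGGTCA was in the Abhd5 window, against 4.72% of all windows. The PPAR and LXR direct repeats and the TATA box were in none of the windows of the 10 genes. A match describes letters only, not binding.

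Both Hilpda probes gave the same picture. With the first, the one with the higher mean signal, the level was 3.94, 3.82, 3.66 and 3.25 on knockout arrays, against a lowest level of −0.84, a median of 1.49 and a highest level of 2.47 on wild-type arrays. The second gave 3.68, 3.53, 3.36 and 2.92 on knockout arrays, against −0.71, 1.28 and 2.36 as the lowest, median and highest wild-type levels. Every knockout array was above every wild-type array with either probe, and wild-type array 3 was the lowest of all by both. The knockout mean was 3.67 ± 0.30 (SD, n = 4) and the wild-type mean 1.35 ± 1.08 (SD, n = 7).

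The fitted difference of Hilpda was 2.94 ± 0.53 (limma, adjusted p = 0.0436), or 7.69-fold. Within slide 1 it was 2.04, or 4.11-fold, and within slide 2 it was 4.30, or 19.7-fold. Without wild-type array 3, only slide 1 still held both genotypes, and the difference was 2.04 (adjusted p = 0.386), which did not pass. The threshold was then passed by 10 genes in all. With each probe tested on its own, the first probe had an adjusted p of 0.0495 and the second, at 2.76 ± 0.51, of 0.0508. With sex as a further term the difference was 2.82 (adjusted p = 0.167).

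Cidec, the droplet fusion factor, lay at −0.37, 0.16, −3.48 and −3.39 on knockout arrays, above background on all 4. On wild-type arrays the lowest level was −5.28, the median −4.84 and the highest 2.17, and 3 of 7 arrays were above background. The 2 wild-type arrays of slide 1 lay at −3.17 and 2.17, with both knockout arrays of that slide between them, so the groups overlapped. The difference was 0.97 ± 1.41 (limma, adjusted p = 0.739), 0.39 when wild-type array 3 was dropped, and it met the filter on dim probes only with the knockout arrays counted. It turned to −0.18 with normexp background correction.

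G0s2, the other ATGL inhibitor of the list, lay at 1.51, 1.15, −0.35 and −0.80 on knockout arrays, against −3.73, −1.05 and 0.92 as the lowest, median and highest wild-type levels. The lowest, wild-type array 3, was not above background. The difference of 1.61 ± 0.56 did not pass (limma, unadjusted p = 0.0176, adjusted p = 0.188). It was 3.16 within slide 2, which rests on that array, and 0.57 within slide 1 and without it.

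Pnpla2, which encodes ATGL, lay at 3.94, 3.24, 3.32 and 2.71 on knockout arrays with its brighter probe. Wild-type arrays had a lowest level of 2.35, a median of 2.76 and a highest level of 3.40. Only knockout array 1 was above every wild-type array. The difference was 0.59 ± 0.37 (limma, adjusted p = 0.422). The dimmer probe, not above background on wild-type arrays 3 and 5, gave 1.70 ± 0.66 (adjusted p = 0.243 with each probe tested separately), 0.68 within slide 1 and 3.22 within slide 2.

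The 2 probes of Abhd5, the ATGL activator, disagreed in sign. The brighter lay at −2.12, −2.38, −2.14 and −2.72 on knockout arrays, inside the wild-type range, whose lowest, median and highest levels were −4.37, −2.45 and −0.63. Its difference was −0.98 ± 0.51 (limma, adjusted p = 0.338), −0.44 within slide 1 and −1.80 within slide 2. The dimmer probe, above background on 6 of 11 arrays, gave 0.69 ± 0.59 (adjusted p = 0.570), so no direction can be given for Abhd5.

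**Figure D2:**
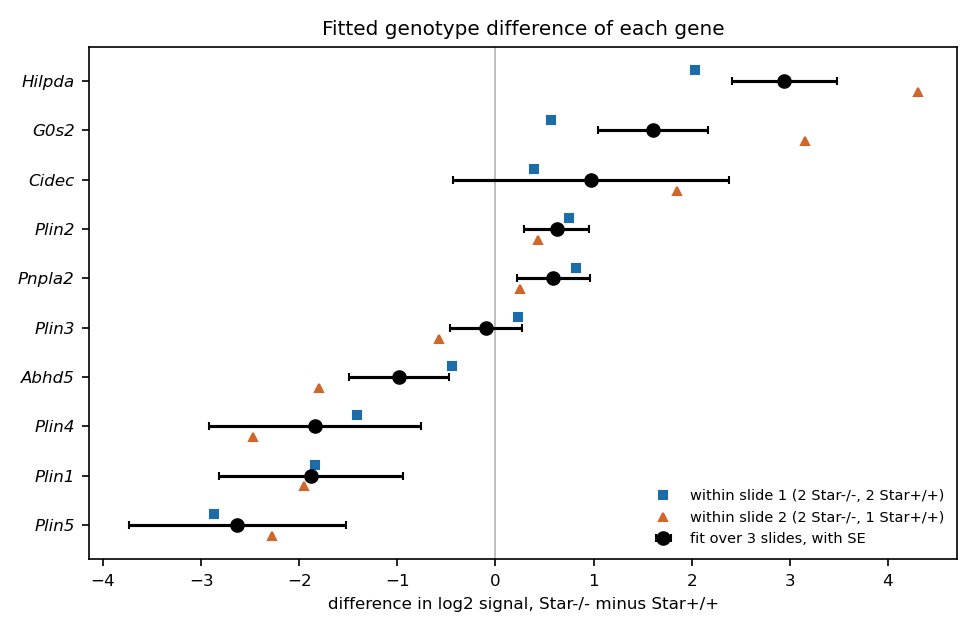
Fitted difference in log2 level, Star-/- minus Star+/+, for each gene with its standard error (black), and the difference within slide 1 (squares) and within slide 2 (triangles). Hilpda is at 2.94 and Plin5 at −2.63; the 2 slides lie furthest apart for G0s2 (0.57 and 3.16) and Hilpda (2.04 and 4.30).

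Among the 10 genes, then, 1 passed, higher in knockout arrays, against 0.602% of all genes tested that were higher and 0.834% that passed in either direction. At an unadjusted p under 0.05 there were 2 higher (Hilpda, G0s2) and 1 lower (Plin5), against 8.39% and 10.1% of all genes. All 4 knockout arrays lay above all 7 wild-type arrays for 1 gene, Hilpda, as for 4.12% of all genes, and below them for none, against 3.24%. The median difference of the 10 was 0.25, 5 fitted higher and 5 lower, where the median of all genes was −0.16. That median was not stable: it was −0.095 over the 9 genes other than Cidec, −0.20 without wild-type array 1 (all genes −0.19), −0.16 within slide 2 (all genes −0.33), −0.038 with normexp and 0.0064 with array weights. No test of the 10 genes as a group was made, since they were chosen with earlier results of these data known.

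**Figure D3:**
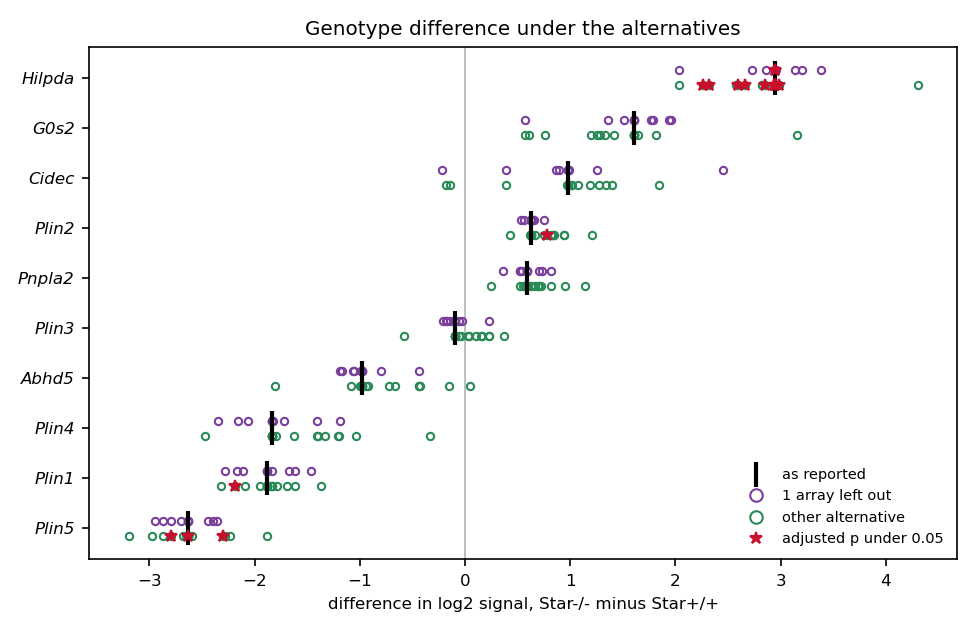
Difference in log2 level, Star-/- minus Star+/+, for each gene as reported (black bar), with 1 array left out (upper, purple) and under the other alternatives (lower, green); stars mark an adjusted p under 0.05. Hilpda stayed between 2.04 and 4.30, Plin5 between −3.20 and −1.89, while Plin3, Cidec and Abhd5 have points on both sides of 0.

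Hilpda kept its direction in 29 of 29 alternatives and passed the threshold in 13. Leaving out 1 array at a time, it passed in 2 of 11 cases (without wild-type array 4 or 6), with differences between 2.04 and 3.38. With array weights, which give less weight to arrays that fit poorly, 4 of the 10 genes passed: Hilpda, Plin1 at −2.19 (limma, adjusted p = 0.0478), Plin2 at 0.78 (adjusted p = 0.0436) and Plin5 at −2.79 (adjusted p = 0.0413). The same setting raised the count over all genes to 2321. Plin5 also passed with slides 1 and 2 alone (adjusted p = 0.0468) and with normexp background correction (−2.30, adjusted p = 0.0193).

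Genes around the same pathway gave few calls. Of 13 genes of triglyceride synthesis none passed in either direction, and their median difference was 0.24. The phosphatidate phosphatase Lpin1 was at 1.16 ± 0.37 (limma, adjusted p = 0.160). Lpin2, of the same family, was at 2.08 ± 0.52 (adjusted p = 0.0974), but it was above background on 4 knockout and 2 of 7 wild-type arrays, so it met the filter only with the knockout arrays and its difference is largely set against background. Dgat1, which makes triglyceride from diacylglycerol, was at 2.49 ± 0.85 (adjusted p = 0.180), with 5.40 within slide 2 and 0.55 within slide 1. It was the same 0.55 when wild-type array 3 was dropped. Dgat1 was above background on 6 of 7 wild-type arrays, and its lowest wild-type level was −5.40. Mogat1, also of the synthesis list, was lower, at −0.79 ± 0.36 (adjusted p = 0.276). Of 8 other lipases and ester hydrolases none passed, and 5 fitted higher and 3 lower. The median was 1.11, with 1.11 within slide 1 and 0.099 within slide 2. Lpl, the lipase that hydrolyses triglyceride of circulating lipoproteins, was above every wild-type array in all 4 knockout arrays, as for 4.12% of all genes. It lay at 4.52 to 5.45 in knockout arrays and 0.81 to 3.24 in wild-type arrays. Its difference was 2.86 ± 0.64 (adjusted p = 0.0771), or 1.73 without wild-type array 3 (adjusted p = 0.669). Mgll, the monoglyceride lipase, was at 1.56 ± 0.41 (adjusted p = 0.110), or 0.99 without that array. Lipa, the lysosomal acid lipase, was at 1.52 ± 0.51 (adjusted p = 0.175). Abhd6, of the same list, was lower, at −1.07 ± 0.66 (adjusted p = 0.415).

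Of 15 other droplet proteins none passed, and the median was 0.079. Of these, Cideb, Hsd17b13, Spg20 and Lpcat1 were above background on under 4 wild-type arrays. Over the other 11 the median was −0.21. Tmem159 encodes a partner of seipin at sites where droplets form. It lay at 3.25 to 3.71 on knockout arrays and 4.02 to 5.64 on wild-type arrays. All knockout levels were below all wild-type levels, as for 3.24% of all genes. The difference was −1.71 ± 0.35 (limma, adjusted p = 0.0610), or −1.31 without wild-type array 3 (adjusted p = 0.477). Lpcat2 did not overlap in the other direction, as for 4.12% of all genes. Its difference was 2.10 ± 0.73 (adjusted p = 0.186), or 1.68 without wild-type array 3 (adjusted p = 0.928). Bscl2, which encodes seipin itself, was at 1.41 ± 0.48 (adjusted p = 0.177), or 0.45 without wild-type array 3 (adjusted p = 0.993). Aup1 was at 2.27 ± 0.84 (adjusted p = 0.209), or 0.57 without that array. Both were above background on 6 of 7 wild-type arrays. In the fatty acid uptake and PPAR list 1 of 13 genes passed, higher in knockout arrays, against 0.602% of all genes, and the median was −0.16. This was Pparg, a nuclear receptor of lipid storage, at 3.21 to 3.74 on knockout arrays and 0.37 to 1.91 on wild-type arrays, 5.36-fold higher, at 2.42 ± 0.40 (adjusted p = 0.0302), and at 2.09 without wild-type array 3 (adjusted p = 0.311). Cd36, a fatty acid transporter, was at 1.34 ± 0.46 (adjusted p = 0.179), Acsl4, an acyl-CoA synthetase abundant in steroidogenic cells, at −2.24 ± 0.71 (adjusted p = 0.155), and Ppara at −1.44 ± 0.53 (adjusted p = 0.207). Of 14 hypoxia response genes none passed, and the median was −0.12; it was −0.34 within slide 2 and turned to 0.24 within slide 1, as it did when wild-type array 3 was dropped. The smallest p in it was that of P4ha1, a collagen prolyl hydroxylase, at 1.04 ± 0.41 (adjusted p = 0.226), or 0.41 without that array. Egln3 was at −1.08 ± 0.61, or 0.072 without that array, and Ndrg1 at 1.25 ± 0.78, or 0.18 without it. Ldha, lactate dehydrogenase, was at −0.37 ± 0.33, or −0.24 without wild-type array 3.

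**Figure D4:**
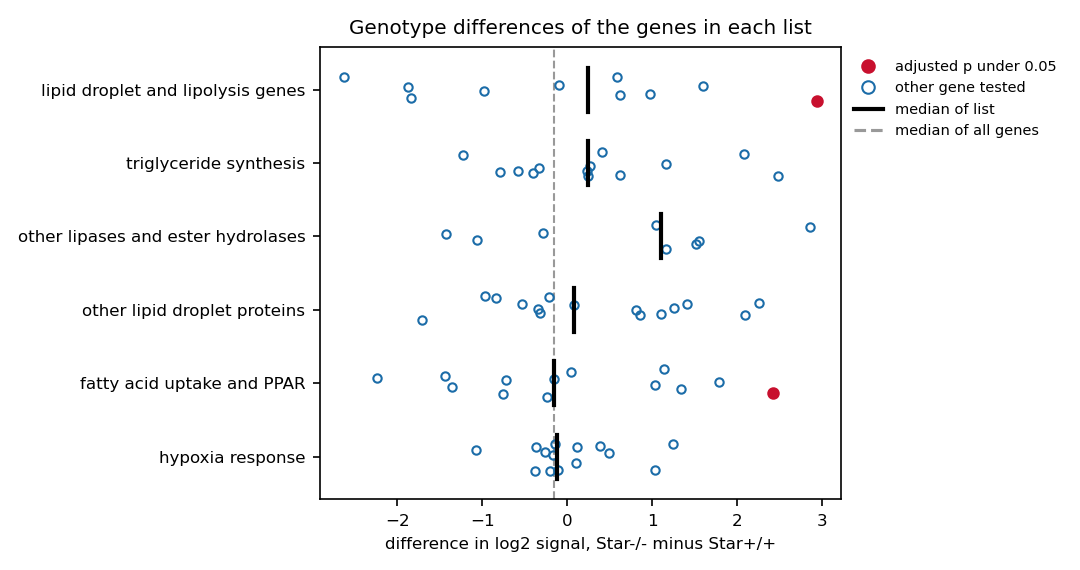
Difference in log2 level, Star-/- minus Star+/+, for every tested gene of 6 lists, with the list's median (black bar) and the median of all genes (dashed, −0.16). Filled points passed an adjusted p of 0.05: Hilpda among the 10 genes (2.94) and Pparg in the uptake list (2.42).

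Of the cell type marker lists summed by array, only that of macrophages separated the genotypes. The summed signal of 15 macrophage markers on the array was 729 to 1219 on knockout arrays and 51.4 to 272 on wild-type arrays, in units of the 75th percentile of each array. Gpnmb, Itgam and Spi1 were above background on 2, 1 and 0 wild-type arrays and met the filter only through the knockout arrays. Their tests are therefore not counted and no difference is given for them, though the sums include them. The other 12 were all higher in every knockout array than in any wild-type array, against 4.12% of all genes. Of these Trem2 alone passed, at 3.92 ± 0.50 (limma, adjusted p = 0.0131), and at 3.11 without wild-type array 3 (adjusted p = 0.125). The median difference of the 12 was 3.05. Without wild-type array 3 the differences of the 12 lay between 0.99 and 3.11, and none passed. The 4 knockout arrays, with Hilpda between 3.25 and 3.94, had the 4 highest macrophage sums; among wild-type arrays Hilpda was highest on array 6 (2.47, macrophage sum 246), then on array 1 (2.27, sum 264), and lowest on array 3 (−0.84, sum 65.5), but array 2, with the highest sum of the 7 (272), was at 1.41, and array 4, with the lowest (51.4), was at 1.55, above 4 of the other wild-type arrays. In bulk samples such as these, fewer cells of a type and less RNA per cell cannot be told apart. The part of macrophage RNA in the levels of Hilpda, Plin2, Lpl, Pparg and Cd36 was not tested.

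The summed adrenocortical markers were 170 to 567 on knockout arrays and 144 to 1510 on wild-type arrays. All 9 tested had fitted differences below 0, as had 11832 of all 20750 tested, and none passed. Their median was −1.28, with −1.47 within slide 1 and −0.21 within slide 2, where the median of all genes was −0.33. Without Cyp21a1, above background on 3 wild-type arrays, the median was −1.37. Of the adipocyte markers on the array, 7 of 8, Ucp1 was above background on knockout arrays 1, 2 and 3 and on no wild-type array, and Cfd on knockout arrays 1 and 3 and wild-type array 3. Adipoq was above background on knockout array 1 alone, Retn on knockout array 1 and wild-type arrays 1 and 2, Lep on wild-type arrays 1 and 2, and only Cidea and Fabp4 on at least 4 arrays. The summed adipocyte level, mostly Fabp4, was 155 to 278 on knockout arrays and 165 to 770 on wild-type arrays. None of the 8 endothelial, 8 capsule and stroma, 8 chromaffin or 8 erythroid markers passed; their medians were 0.60, 1.13, −1.22 and −0.43. Without wild-type array 3 these were 0.12, 1.02, −0.996 and −0.017.

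**Figure D5:**
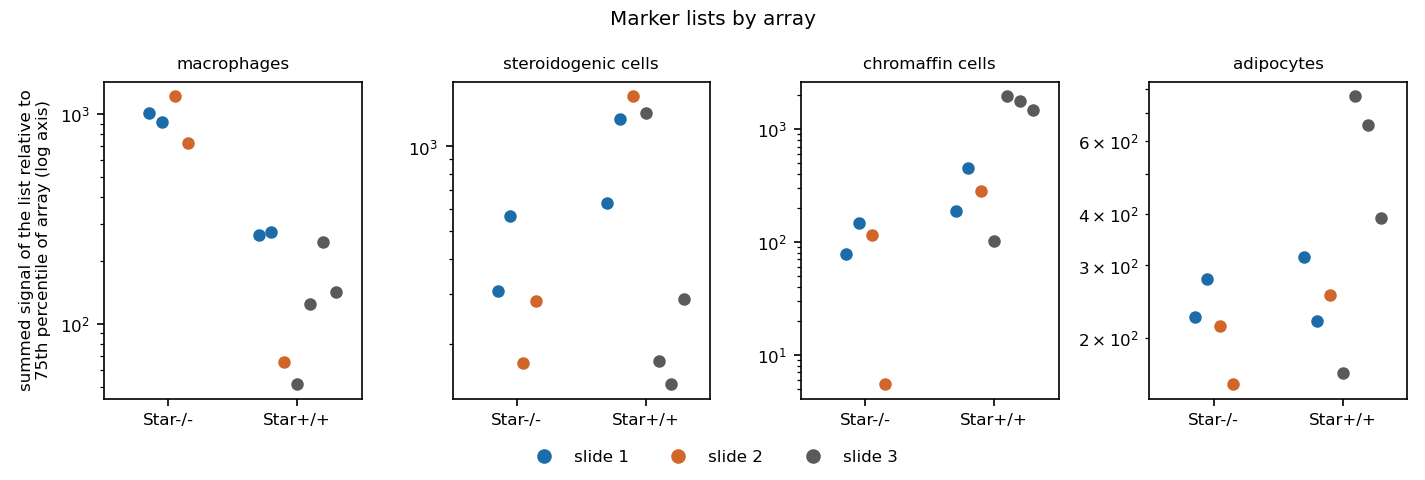
Summed signal of 4 marker lists on each array, relative to the 75th percentile of the array (log axes), Star-/- arrays left of Star+/+ arrays and coloured by slide. Macrophage sums of the 4 knockout arrays (729 to 1219) lie above all 7 wild-type sums, and the chromaffin sums of 3 wild-type arrays of slide 3 (1493 to 1978) above all others.

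The 7 wild-type arrays differed among themselves. Arrays 5, 6 and 7, which had the 3 lowest wild-type levels of Star and the high chromaffin sums, also had the 3 lowest wild-type levels of 5 of the 10 genes, Plin1, Plin2, Plin3, Plin4 and Abhd5, against 16.2% of all genes. Array 3 was the highest wild-type array for Plin2, Plin3, Plin4 and Abhd5 and the lowest for Cidec, Hilpda and G0s2, against 31.4% and 17.4% of all genes. Of the 10 genes, 7 were above background on all 11 arrays.

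Genes with the most similar pattern over the 11 arrays were found by the root mean square difference of levels centred on each gene's own mean, among 13780 named genes. For Hilpda these were Plaur (0.33 on the log2 scale), Mylip (0.42) and Fgl2 (0.46), and for Plin2 they were Tnip1 (0.22), Nabp1 (0.26) and Vipr1 (0.26). Plin1 was nearest to Tmem35a (0.44), Gstm7 (0.53) and Inha (0.54), Plin3 to Adpgk (0.17), and Plin5 to Ugt2b37 (0.69). Pnpla2 was nearest to Clptm1l (0.24) and Plin4 to Pla2g1b (0.61). Fgl2, Gstm7, Ugt2b37 and Pla2g1b were not above background on all 11 arrays. Plaur had a difference of 2.86 (limma, adjusted p = 0.0559), and Tmem35a one of −1.89 (adjusted p = 0.224). Genes measured on the same 11 arrays share their slides, amplification and mixture of cells, so likeness is a description.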

How the data were processed

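RNA of sorted cells from 4 Star knockout and 7 wild-type fetuses was hybridised to single-colour arrays of 3 designs. The deposited scanner files hold spot intensity; per the file headers Feature Extraction 10.1.1.1 (slides 1 and 2) or 10.5.1.1 (slide 3) was used, the submitters' processing notes name 10.5.1.1, and the headers name builds mm8 (slide 1) and mm9. The deposited series table holds log2 values; they equalled the scanner files' log2 processed signal, scaled by array 75th percentile and then centred by probe on its median, to within 0.01 for 99.8% to 99.9% of probes; its column medians ran between −0.17 and 0.90, and its direction needed no change. Slides were taken from the array identifiers.

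Spots were read as log2 processed signal minus the 75th percentile over non-control probes. Spots flagged as feature outliers (77 to 164 per array) were left out. A probe was missing on an array only if all its spots there were flagged, which gave 82 missing probe values, none of the 10 genes. These flags were chosen after seeing the data. No spot was saturated. Of 41174 probes, 25377 had a symbol through the accession and RefSeq's table, and 92 had symbols that differ between designs. A gene with several probes was represented by the brightest on average, and testing required a signal well above background on 4 or more of the 11 arrays. Differences came from limma 3.58.1 (R 4.3.3), two-sided, with slide as a block and Benjamini-Hochberg adjustment over 20750 genes and unnamed probes, with a threshold of 0.05. The procedure was tested on simulated data. The number of arrays limits the precision; p-values measure the spread between 1-mouse arrays.

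Members and lists were chosen with earlier results of these data known, and the motifs after the values were seen. Named are Star, the 10 genes, up to 4 genes of each list with the smallest p, and genes most like each member above background on all arrays (all 3 for Plin1, Plin2 and Hilpda, the nearest for the other 4); other marker genes are named for their detection. Replicate numbers were not established as pairs. The correlation of deviations of same-numbered arrays was 0.18, 0.22, −0.0075 and 0.18. No protein or probe sequences were used here.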

Additional observations from a re-analysis of the deposited data

Results flagged for a closer look

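Of 22 groups of levels examined for a single array far from the others, 3 had one, all among wild-type arrays; chance alone flags about 1 in 20 groups. Plin5 was at −3.03 on wild-type array 6, far below the other wild-type arrays. Hilpda was at −0.84 on wild-type array 3, below the other 6, and this array carries the whole of the slide 2 difference. Pnpla2 was at 3.40 on wild-type array 6, above the other wild-type arrays.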

How the results depend on the processing

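The count of the 10 genes that passed was 1 as reported (Hilpda) and 0 within slide 1 alone, within slide 2 alone, with sex as a further term with or without wild-type array 4, with median scaling and with no filter on dim probes. It was 2 with slides 1 and 2 alone and with normexp, and 4 with array weights. The count over all genes was 173 as reported, 469 with a random slide effect, 594 without any slide term, 533 with slides 1 and 2 alone, 0 within slide 1 and 0 within slide 2 (limma; 3859 and 7487 at an unadjusted p under 0.05), 28 with sex as a further term, 78 when wild-type array 4 was also left out, 622 with normexp, 92 with median scaling, 403 for probes above background on all 11 arrays and 2321 with array weights. Leaving out 1 array at a time gave 10 to 565 genes and 0 to 1 of the 10 genes, the fewest when wild-type array 3 was dropped and the most when array 4 was. With the replicate block, 0 of the 10 genes and 175 genes passed, and Hilpda was at 2.57 (adjusted p = 0.0815). Only knockout array 2 correlated best with its own number, so the numbers were not read as pairs. Hilpda's adjusted p ran between 0.00170 and 0.386 over the alternatives. Plin3 turned to 0.37 with no slide block, 0.16 with a random block, 0.23 within slide 1 and without wild-type array 3, 0.029 with sex, 0.037 with the replicate block, 0.10 with normexp, 0.22 with quantile normalization and 0.15 with array weights. Abhd5 turned to 0.047 with no slide block. Cidec turned to −0.18 with normexp, −0.14 with array weights and −0.22 without wild-type array 1; with 1 array left out it ran between −0.22 and 2.46, and Plin3 between −0.21 and 0.23. The cause of these changes was not tested, and the fits within single slides also used fewer arrays. The median of all genes was −0.16 as reported, −0.078 with quantile normalization, −0.12 with median scaling and −0.29 with normexp. Levels of probes not well above background (Cidec on 4 wild-type arrays, G0s2, Abhd5, Dgat1, Bscl2 and Aup1 on 1 each, Lpin2 on 5) bound rather than measure the signal.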
